A study of Mus musculus with 6 samples.

Results

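The Argonaute and Piwi genes were read isoform by isoform in TT-FHAgo2, a clonal line of mouse embryonic stem cells in which doxycycline sets the level of Argonaute 2. The members were taken by symbol from the deposited table: Ago1, Ago2, Ago3 and Ago4 (listed there under the older names Eif2c1 to Eif2c4), Piwil1, Piwil2 and Piwil4. These are 7 of 31876 named genes, with 55 of 141569 named isoforms of 200 nt or more. The rule itself uses symbols and no measured value, although the genes were proposed with earlier results of these data known. All groups came from cells propagated in 0.1 µg/mL doxycycline. For 2 libraries, 48 h at 2.5 µg/mL followed, a dose that the labels tie to wild-type levels of Ago2, and for the other 2 the drug was withdrawn for 96 h. The conditions therefore differ in the drug and in the hours since the change of medium, and these cannot be told apart. The labels give neither the alleles of the endogenous Argonaute genes nor the sequence of the induced gene, and they do not say whether the libraries of a condition came from separate cultures, so p-values measure the spread between libraries, which may be technical. The series also has 2 spike-in samples, not used here.

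Argonaute proteins hold a small RNA and use it to find complementary transcripts. Ago1 to Ago4 load microRNAs and recruit the TNRC6 scaffolds that bring about decay and translational repression, and of the 4 proteins Ago2 is the main one able to cut a target. Piwi proteins belong to the same superfamily, bind piRNAs and are known mainly from the germ line, where they hold transposons silent.

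Levels are FPKM, fragments scaled by transcript length and library total, so they may be set side by side between genes. Log2 changes are differences of log2(FPKM + 0.5), without less with doxycycline. The added constant shrinks the change of weakly expressed genes. Errors are SD over n = 2 libraries, and libraries carry the numbers 0 and 1 of the deposited columns. The FPKM of 1 isoform is Cufflinks's estimate of how the reads of a locus divide between overlapping forms. The depth of the libraries is unknown, since the values hold no whole-read steps. The summed FPKM of all isoforms used was 508954 and 535107 with doxycycline and 449360 and 485192 without, so both totals without the drug were lower. The TPM scale used below sets these totals equal, and small changes depend on that choice.

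All 9 embryonic stem cell markers were measured in every library (summed 4132 to 4632 FPKM with and 4246 to 4846 without doxycycline). The sum hides moves both ways. In limma at an adjusted p under 0.05, Nanog was higher without the drug (log2 change 0.54). Klf4 (-0.42), Utf1 (-0.61) and Zfp42 (-0.49) were lower, and the other 5 were not called. Of all tested genes, 19.4% were called higher and 20.9% lower. Of 7 mesenchymal markers, Col3a1 and Postn were listed at 0 in all 4 libraries, and the sum stood at 4.20 to 4.35 FPKM with and 4.89 to 4.96 without the drug. Most of it came from 2 genes. Thy1 measured 1.94 and 1.84 FPKM with and 2.18 and 2.35 without, and Twist1 2.15 and 2.19 with and 2.44 and 2.43 without. Both were somewhat higher without the drug, and neither was called in limma.

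The splice joins on which the results turn are shown first, because they are what separates one form from another. The letters are those of GENCODE M21 transcripts on GRCm38, not of the reads, and the assembly itself lies on NCBIM37. The inner exons had the same lengths in both for Ago1, Ago2 and Ago3 (17 of 17 each) and for Ago4 (16 of 16). Each line reads 5′ to 3′ on the minus strand, with 25 bases before the join in lower case and the 25 bases after it in capitals.

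The first set is Ago2, where exon 7 ends at chr15:73126447-73126471 and is joined either to exon 8 (chr15:73125287-73125311) or, skipping 4 exons, to exon 12 (chr15:73121224-73121248).
Ago2 exon 7 to exon 8: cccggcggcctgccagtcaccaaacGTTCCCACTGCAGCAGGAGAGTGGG
Ago2 exon 7 to exon 12: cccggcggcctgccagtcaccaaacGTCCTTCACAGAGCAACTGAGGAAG
Ago2 exon 11 to exon 12: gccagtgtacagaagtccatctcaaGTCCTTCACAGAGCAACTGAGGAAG

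The second set is the end of Ago1 and Ago3, neighbouring genes on chromosome 4. Ago1 exon 18 ends at chr4:126439842-126439866 and Ago3 exon 19 begins at chr4:126345558-126345582.
Ago1 exon 18 to exon 19: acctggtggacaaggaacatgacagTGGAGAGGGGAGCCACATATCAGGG
Ago1 exon 18 to Ago3 exon 19: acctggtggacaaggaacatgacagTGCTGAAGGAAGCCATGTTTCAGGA
Ago3 exon 18 to exon 19: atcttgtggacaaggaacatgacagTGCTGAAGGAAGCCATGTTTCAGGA

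The third set is Ago4 exon 7, which ends at chr4:126515887-126515911 and is either joined to exon 8 or read on into its intron.
Ago4 exon 7 to exon 8: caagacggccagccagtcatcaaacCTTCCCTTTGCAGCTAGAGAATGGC
Ago4 exon 7 read on into its intron: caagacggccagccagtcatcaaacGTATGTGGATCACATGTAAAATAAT

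At the gene level, Ago2, Ago3 and Piwil2 reached the minimum of 1 FPKM (mean of either condition), and each fell without doxycycline in limma at an adjusted p under 0.05. In limma 40.3% of the 13268 tested genes were called in either direction and 20.9% were called lower, so a call alone does not set these genes apart. Groups that do not overlap were more common still, at 73.1% of tested genes (40.0% lower and 33.1% higher without the drug). A permutation test of a single gene cannot pass here, because 2 libraries against 2 allow no exact two-sided p below 0.333. Less RNA per cell and fewer cells expressing a gene cannot be told apart in bulk libraries.

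Ago2 (chromosome 15, 72926267 to 73015812, minus strand, NCBIM37) was the most abundant member. It stood at 35.2 and 36.7 FPKM in the libraries numbered 0 and 1 with doxycycline and at 28.7 and 28.8 FPKM without. Both values with the drug were above both without it, a 1.25-fold difference in the means (log2 change -0.32, SE 0.08, limma adjusted p = 0.0293). Whether reads of the induced Ago2 fall on this locus was not tested, so endogenous, induced and mixed RNA cannot be told apart in these values or in those of the Ago2 forms below. Among tested genes, 26.6% had a more negative change. The difference between same-numbered libraries was -0.29 and -0.34. The call was lost when any 1 library was left out (limma adjusted p from 0.0782 to 0.206), and on the TPM scale the change was -0.16 (adjusted p = 0.149).

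Ago3 (chromosome 4, 126008948 to 126145878, minus strand) shares the microRNA-loading role of Ago2 and stood at 20.3 and 18.3 FPKM with doxycycline against 6.28 and 7.43 without. The conditions were far apart relative to the spread of either (2.82-fold, log2 change -1.43, SE 0.12, limma adjusted p = 0.00248). Of the 13268 tested genes, 83 had a more negative change. The difference was -1.62 between the libraries numbered 0 and -1.24 between those numbered 1.

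Piwil2 (chromosome 14, 70772024 to 70829228, minus strand), the Piwi protein Mili of prenatal and adult germ cells, measured 5.64 and 6.35 FPKM with doxycycline and 4.18 and 4.405 without. The groups did not overlap (1.40-fold, log2 change -0.44, SE 0.10, limma adjusted p = 0.0257). The call was lost without the library numbered 1 with doxycycline (limma adjusted p = 0.132) and without either library lacking the drug (0.0908 and 0.0587), and with no minimum level (0.0659).

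Piwil4 (chromosome 9, 14500674 to 14545177, minus strand), the Piwi protein Miwi2 of fetal germ cells, just missed the minimum, with a mean of 0.993 FPKM with doxycycline. It measured 0.860 and 1.13 FPKM with the drug and 0.331 and 0.233 without, a 3.52-fold difference of groups that did not overlap. With no minimum level, limma gave it an adjusted p of 0.0311 and a log2 change of -0.93.

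Ago4 and Piwil1 stayed below the minimum in every library and were not tested. Ago4 (chromosome 4, 126166785 to 126219646, minus strand) measured 0.543 and 0.538 FPKM with doxycycline and 0.571 and 0.639 without, a shift of 0.09 on the log2 scale. Piwil1 (chromosome 5, 129242121 to 129261349, plus strand), the Piwi protein Miwi of spermatids, measured 0.143 and 0.234 FPKM with and 0.121 and 0.137 without. Ago1 (chromosome 4, 126112188 to 126145931, minus strand) was listed at 0 in all 4 libraries for each of its 9 isoforms.

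With doxycycline the order of levels was therefore Ago2, Ago3, Piwil2, Piwil4, Ago4, Piwil1 and Ago1, and no neighbours in it overlapped between the libraries. Without the drug Ago4 stood above Piwil4, and Ago3 stayed above Piwil2. The makeup of the Argonaute RNA shifted with it. Ago2 made up 62.8% and 66.1% of the summed FPKM of Ago1 to Ago4 with doxycycline and 80.7% and 78.1% without. Ago2 exceeded Ago3 by 1.73 and 2.004 times with the drug and by 4.56 and 3.88 times without it.

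**Figure D1:**
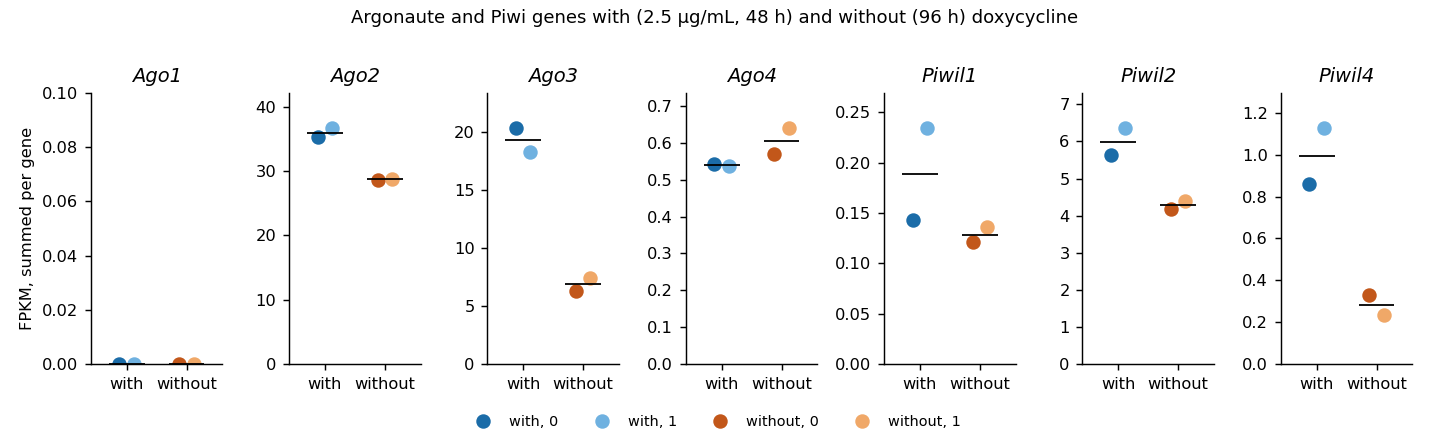
Summed FPKM of each member (vertical axes from 0, with a scale of its own per gene) in the 2 libraries with and 2 without doxycycline. Points are libraries and bars are means of n = 2. Ago2, Ago3, Piwil2 and Piwil4 are higher in both libraries with the drug, Ago4 is slightly higher without it, and Ago1 is at 0.

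Below the gene level the fit covered 32943 isoforms, of which limma called 0 (0%, smallest adjusted p = 0.0542) and 6053 had an unadjusted p under 0.05. Of the 55 member isoforms, 12 reached 1 FPKM in either condition and the others did not. No isoform is therefore called changed in what follows, and groups without overlap were found for 51.0% of all tested isoforms. The groupings of forms by the exons they hold were made after their values were seen and are descriptions with no test.

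Ago2 was assembled as 5 forms, which differ at the start, in the middle and at the end of the transcript. The 14320-nt form has no 5′ exons. It begins at 72953750, 2072 bases before exon 12 and right beside the end of exon 11 at 72953753. It thus holds nearly the whole intron between them and exons 12 to 19. It measured 15.2 and 13.4 FPKM with doxycycline and 13.7 and 11.4 without, so the conditions overlapped (limma adjusted p = 0.594). This form made up 43.0% and 36.5% of Ago2 with the drug and 47.8% and 39.5% without it.

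All 19 exons are held by the 14199-nt form and the 3303-nt form. They differ in the last exon, which runs for 11180 nt in the first and for 771 nt in the second. The 14199-nt form measured 4.02 and 2.08 FPKM with doxycycline and was listed at 0 in both libraries without (limma adjusted p = 0.143). The 3303-nt form measured 13.1 and 18.6 FPKM with and 8.84 and 12.4 without, higher in each library with the drug than in either without it (adjusted p = 0.372). Summed, the forms with all 19 exons stood at 17.2 and 20.7 FPKM with and 8.84 and 12.4 without, a 1.78-fold difference of the means (log2 change -0.82). This is larger than the 1.25-fold of the whole gene.

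Exon 7 is joined straight to exon 12 in the 13691-nt and 13704-nt forms, by the second Ago2 join printed above. Together they measured 2.93 and 2.59 FPKM with doxycycline and 6.11 and 5.08 without. Here the order was turned around: both libraries without the drug were above both with it, by 2.03 times in the means (log2 change 0.90). The 13691-nt form, which carried nearly all of this, had a limma adjusted p of 0.171. It has the same 11180-nt last exon as the 14199-nt form, which fell from 4.02 and 2.08 FPKM to 0. The split of reads between these long forms is an estimate, and their sum was not computed. Whether these opposite moves are separate was not tested. As a share of all forms with exon 7, the skipped forms made up 14.6% and 11.1% with doxycycline and 40.9% and 29.1% without.

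The exons left out, 8 to 11, hold 525 nt, all of it coding. That is 175 codons, and exons 8 and 12 begin in the same reading frame, so the join keeps the frame. Whole codons 295 to 468 are missing from such a transcript. In Argonaute proteins this stretch falls in the later part of the PAZ domain, which holds the 3′ end of the small RNA, the linker after it, and the start of the MID domain, which holds the 5′ end.

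Read along the gene, these forms gave a stepped profile. Exons 1 to 7 were held by forms summing to 20.1 and 23.3 FPKM with and 15.0 and 17.4 without doxycycline, apart from exon 6 at 23.1 FPKM in the library numbered 1 with the drug. For exons 8 to 11 the sums were 17.2, 20.7, 8.84 and 12.4 FPKM in the same order of libraries. From exon 12 on they equalled the gene's total, 35.2, 36.7, 28.7 and 28.8 FPKM. The difference between conditions was thus widest in the exons that the skipped forms lack. These are levels of modelled forms and not reads counted on each exon.

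**Figure D2:**
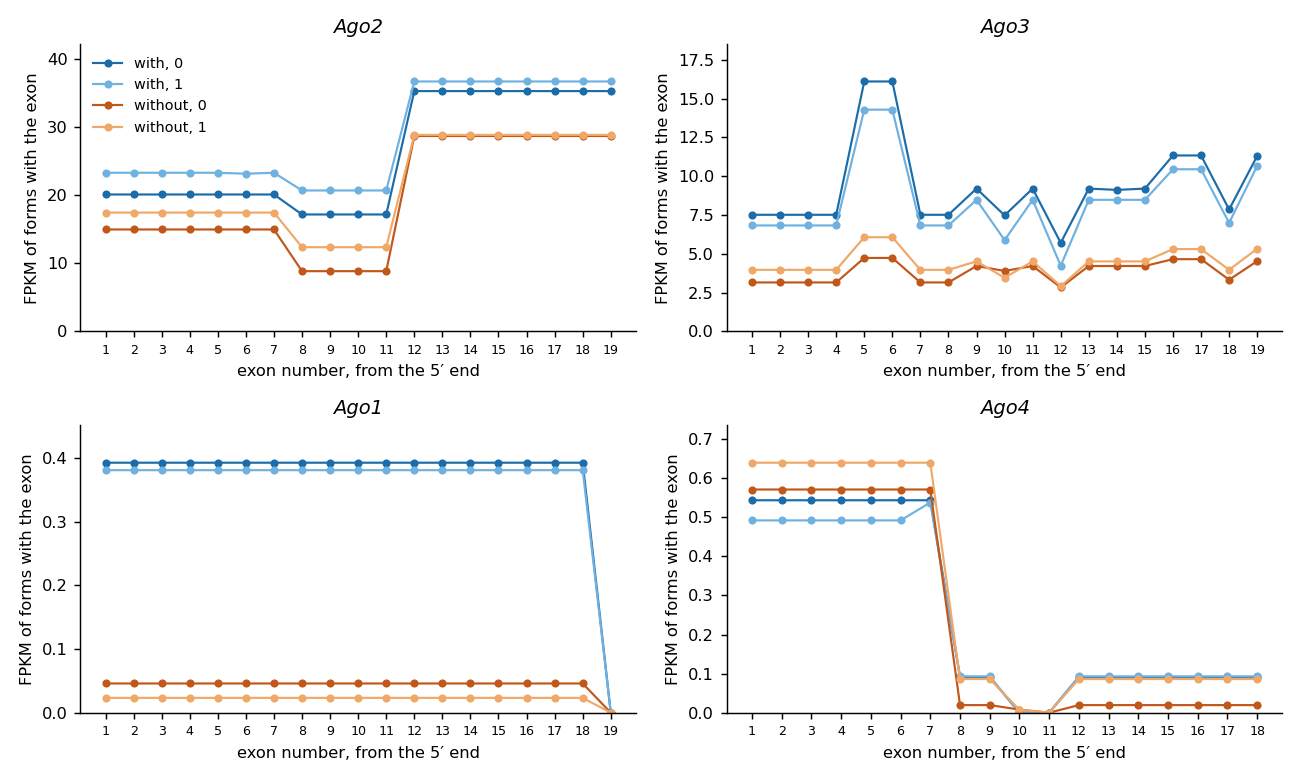
Summed FPKM of the assembled forms that hold each reference exon (vertical axes from 0) against the exon number of Ago2, Ago3, Ago1 and Ago4, with 1 line per library. Ago2 steps up from 15.0 to 23.3 FPKM over exons 1 to 7 to 28.7 to 36.7 FPKM from exon 12, Ago1 is carried only through exon 18, and Ago4 drops after exon 7.

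Ago3 was assembled as 17 forms, 7 of them at 0 in all 4 libraries. The highest in FPKM was a 625-nt form of 4 exons. It holds exons 5 and 6, part of exon 4 and a last exon of its own. It measured 8.59 and 7.46 FPKM with doxycycline and 1.58 and 2.0995 without (log2 change -1.87, limma adjusted p = 0.138). Its share of the gene's summed FPKM was 42.3% and 40.8% with the drug and 25.1% and 28.3% without. FPKM is scaled by length, so at equal FPKM this form stands for fewer fragments than the 15595-nt form. Sums over Ago3 forms, such as that behind the 2.82-fold fall of the gene, weigh short forms more than their fragments would. Fragments per form were not counted. A 433-nt form that runs from within exon 15 to within exon 19 measured 1.71 and 1.80 FPKM with and 0.267 and 0.792 without (adjusted p = 0.259). The 5 forms under 1000 nt summed to 10.7 and 9.43 FPKM with and 2.02 and 2.89 without, a 4.10-fold difference.

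The 8 forms that run from exon 1 to exon 19 summed to 7.52 and 6.83 FPKM with doxycycline and 3.16 and 3.97 without, which is 2.01-fold. They did not move alike. The 15595-nt form, with the 19 reference exons, measured 2.16 and 1.95 FPKM with and 2.05 and 1.98 without, inside the spread of the libraries (log2 change -0.02, SE 0.20, limma adjusted p = 0.966). The 15847-nt form, which has an additional exon, measured 3.55 and 2.29 FPKM with and 0.785 and 0.940 without (adjusted p = 0.184). A 3472-nt form lacking exons 10 and 12 measured 1.72 and 2.59 FPKM with and 0.319 and 1.05 without (adjusted p = 0.291). Outside these 8, the 14184-nt form has a first exon of its own, then exon 9 onward without exon 12. It measured 1.69 and 1.65 FPKM with and 1.06 and 0.543 without (limma adjusted p = 0.342). The 15595-nt form thus made up 10.7% of Ago3 in both libraries with the drug and 32.7% and 26.6% without it, while its level moved by less than the spread.

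The ratio of the 2 genes differed less between conditions over the sets of forms chosen here, but the sets are unlike. The Ago2 set leaves out the skipped forms, which also run from exon 1 to exon 19, while the Ago3 set keeps forms lacking inner exons. All Ago2 forms holding exon 1 summed to 20.1 and 23.3 FPKM with doxycycline and 15.0 and 17.4 without. Between conditions these Ago2 forms differed 1.34-fold in the means, the Ago2 forms with all 19 exons 1.78-fold and the Ago3 set 2.01-fold. Leaving out the skipped forms thus brought the Ago2 difference closer to that of Ago3. The smaller difference in the ratio therefore depends in part on this choice of forms. The ratio of all Ago2 forms holding exon 1 to the Ago3 set was not computed. Ago2 forms with all 19 exons exceeded Ago3 forms from exon 1 to exon 19 by 2.28 and 3.03 times with doxycycline and by 2.80 and 3.11 times without. On the gene sums the same ratio moved from 1.73 and 2.004 to 4.56 and 3.88. Against the gene sums, the ratio over these unlike sets was higher with the drug and lower without it.

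**Figure D3:**
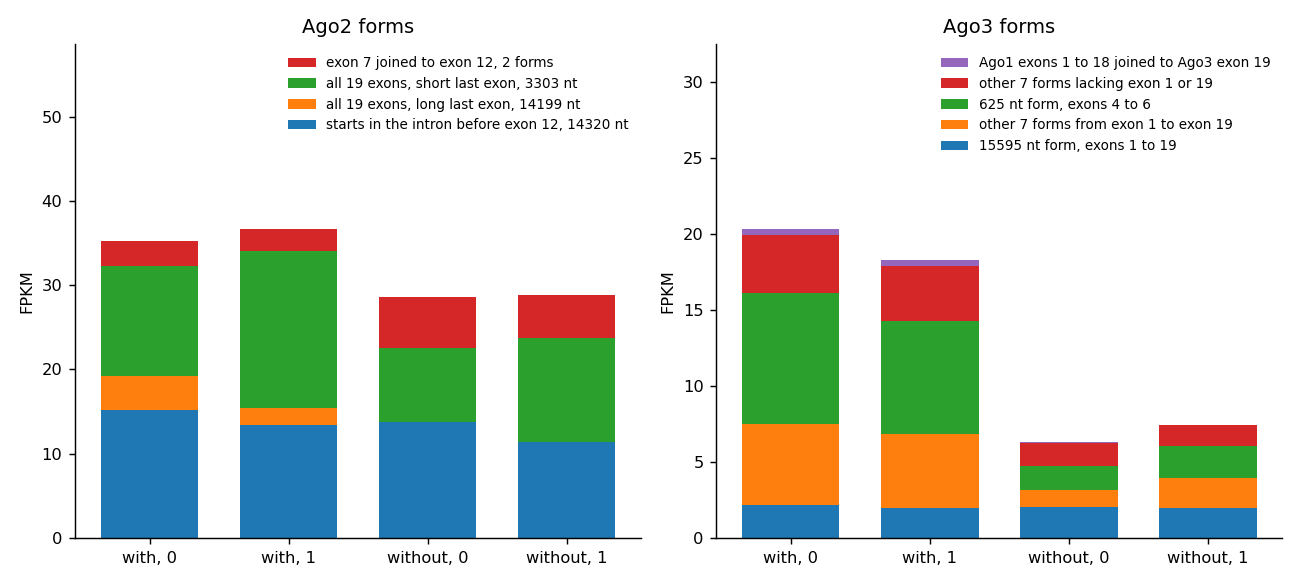
Stacked bars of FPKM (vertical axis from 0) by group of forms, for Ago2 at left and Ago3 at right, with 1 bar per library. In Ago2 the skipped forms take a larger part of the bars without doxycycline. In Ago3 the 625-nt form shrinks from 8.59 and 7.46 to 1.58 and 2.0995 FPKM while the 15595-nt form stays between 1.95 and 2.16 FPKM.

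Ago1 was listed at 0, but its exons 1 to 18 were also held by a form counted under Ago3. A form of 15641 nt begins at the start site of Ago1, runs through Ago1 exons 1 to 18 and is joined to Ago3 exon 19, and the files name it Ago3. It measured 0.393 and 0.381 FPKM with doxycycline and 0.0459 and 0.0233 without. Every value with the drug was above those without it, by 11.2 times in the means, at levels too low to test. Most of this form is Ago3 exon 19 (12851 nt in the reference), which other Ago3 forms share. Reads on Ago1 exons were not counted, so a modelled value this low does not show RNA from those exons. Ago1 exon 19, which only Ago1 forms hold, was at 0 in all libraries. The fused form carried 1.93% and 2.08% of the Ago3 sum with the drug and 0.731% and 0.313% without, so leaving it out changed little: the other 16 forms stood at 19.9 and 17.9 FPKM with and 6.24 and 7.41 without.

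The join of Ago1 to Ago3 printed above keeps the reading frame, since exon 19 starts in the same frame in both genes and holds 106 coding nt in each. The last 20 bases of exon 18 are identical in Ago1 and Ago3, so a read across the join is assigned to one or the other only by bases farther upstream. Over the aligned coding sequence, Ago1 and Ago3 were 76.1% identical, close to the 76.4% of Ago1 and Ago2, but their longest identical run was 170 nt, in exon 12 of both, against 53 nt for Ago1 and Ago2. The share of reads that map to both genes was not measured here, and the split of this locus between Ago1 and Ago3 is uncertain.

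Ago4 RNA was mostly a 5′ piece. A 1527-nt form holds exons 1 to 7, its last exon reading on into the intron as in the third set of joins. It measured 0.452 and 0.399 FPKM with doxycycline and 0.552 and 0.553 without. The groups did not overlap, but the difference was 0.19 on the log2 scale. Forms with the last exon of the gene summed to 0.0914 and 0.0928 FPKM with and 0.0194 and 0.0861 without. Exons 1 to 7 hold 848 of the 2583 coding nt of Ago4, or 32.8%, and the MID domain, which anchors the 5′ end of the small RNA, lies downstream of them.

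Piwil2 had a pair of start sites. The 4913-nt form, with all 23 exons of the reference, measured 3.12 and 3.98 FPKM with doxycycline and 2.08 and 2.78 without (limma adjusted p = 0.397). The 5124-nt form uses another first exon and measured 2.43 and 1.50 FPKM with and 2.08 and 1.31 without (adjusted p = 0.841). Its levels overlapped between conditions and followed the library number, being higher in both libraries numbered 0. The difference between conditions was wider in the forms from the first start, although no form was called and the start sites were not compared by a test. Exon 1, which these forms alone hold, stood at 3.21 and 4.85 FPKM with and 2.09 and 3.09 without (log2 change -0.55). The 5124-nt form changed by -0.16. A 2226-nt form that ends after exon 16 was listed at 0 and 0.852 FPKM with and at 0.00987 and 0.312 without, again by library number.

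Piwil4 was assembled as 10 forms. The 3304-nt form with all 20 exons carried the gene with doxycycline, at 0.717 and 0.954 FPKM, and measured 0.0146 and 0.0310 without. A 2111-nt form that starts in the intron just before exon 10 measured 0.144 and 0.159 FPKM with and 0 and 0.197 without. What was left without the drug differed between its libraries: forms holding exon 1 summed to 0.331 FPKM in the library numbered 0 and to 0.0360 in that numbered 1. Piwil1 was a single form of 3944 nt and 22 exons.

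The proteins that load Argonautes or act with them form a list of 28 genes, all tested, chosen with earlier results of these data known. Without doxycycline 4 rose, 7 fell and 17 did not pass in limma, against 19.4% of all tested genes called higher and 20.9% called lower. The median change was -0.09 on the log2 scale beside -0.06 over all genes.

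The TNRC6 scaffolds, which bind Argonaute and recruit deadenylases, were among those that rose. Tnrc6a measured 19.8 and 20.7 FPKM with doxycycline and 29.5 and 30.4 without (log2 change 0.55, SE 0.08, limma adjusted p = 0.00733). Tnrc6b measured 7.76 and 9.15 FPKM with and 12.1 and 14.5 without (0.62, SE 0.13, adjusted p = 0.0202). Tnrc6c stood at 17.5 and 18.1 FPKM with and 17.01 and 17.8 without (adjusted p = 0.780), so the paralogs did not share 1 pattern, although the differences between them were not tested. Mov10, an RNA helicase bound to Argonaute complexes, measured 50.8 and 57.2 FPKM with and 120 and 139 without (1.25, SE 0.12, adjusted p = 0.00293). P4ha1, a catalytic subunit of the prolyl hydroxylase that modifies Ago2, rose by 0.70 (adjusted p = 0.00499), while its partner subunit P4hb did not pass (0.08, adjusted p = 0.471).

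The 7 that fell were Tsn of the passenger-strand nuclease C3PO (log2 change -0.56), the LIM-domain protein Ajuba (-0.52), the helicase Ddx20 (-0.52), the replication factor Mcm10 (-0.47), the HSP90 cochaperone Ptges3 (-0.45), the decay helicase Ddx6 (-0.35) and the Dicer partner Tarbp2 (-0.33). Their limma adjusted p ran from 0.00770 for Ddx20 to 0.0364 for Tarbp2. Dicer1, which makes the microRNA duplex, measured 20.2 and 19.6 FPKM with and 19.7 and 19.9 without (-0.01, adjusted p = 0.948). The chaperones Hsp90aa1, Hsp90ab1 and Hspa8 did not pass either.

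The piRNA pathway list has 21 genes, of which 11 reached the minimum. In limma 1 rose, 5 fell and 5 did not pass, against 19.4% of all tested genes called higher and 20.9% called lower, with a median of -0.50 beside -0.06 for all tested genes. Genes high in 1 condition alone can pass the minimum through it, so these counts describe the tested genes and not the list. Rnf17, a Tudor-domain protein of germ cell granules, measured 14.1 and 14.4 FPKM with doxycycline and 6.53 and 6.38 without (-1.08, SE 0.08, adjusted p = 0.00225). Ddx4, the helicase Vasa, fell by 0.87 (adjusted p = 0.00571), Mael, a piRNA biogenesis factor, by 0.81 (0.00754), the helicase Mov10l1, needed to make piRNA precursors, by 0.75 (0.0187), and Tdrd12 by 0.71 (0.00412). Tdrd12 was the most abundant of these, at 54.6 and 53.6 FPKM with and 32.3 and 33.5 without. Mybl1, the transcription factor that drives pachytene piRNA clusters, went the other way, from 7.41 and 6.82 FPKM to 13.8 and 14.2 (0.93, SE 0.09, adjusted p = 0.00300).

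Among 6 germ cell markers, 4 of the 5 tested were lower without doxycycline (Ddx4, Dazl, Sycp1 and Tex14), against 20.9% of all tested genes. Stra8 did not pass and stood at 1.68 and 1.51 FPKM with and 1.89 and 2.08 without, the other way. Their sum stood at 28.4 to 29.7 FPKM with and 18.4 to 19.3 without, and Prm1 was listed at 0 in 3 of 4 libraries. A second list of 6 germline markers, which shares Dazl, Stra8 and Sycp1 with the first, had 3 lower (Dazl, Sycp1 and Sycp3) and 2 not called among 5 tested. Of the latter, Nanos3 measured 2.26 and 2.41 FPKM with and 2.45 and 2.82 without, again higher without the drug. Piwil2 and Piwil4 differed in the same direction, and the part of these cells or genes in those results was not tested.

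**Figure D4:**
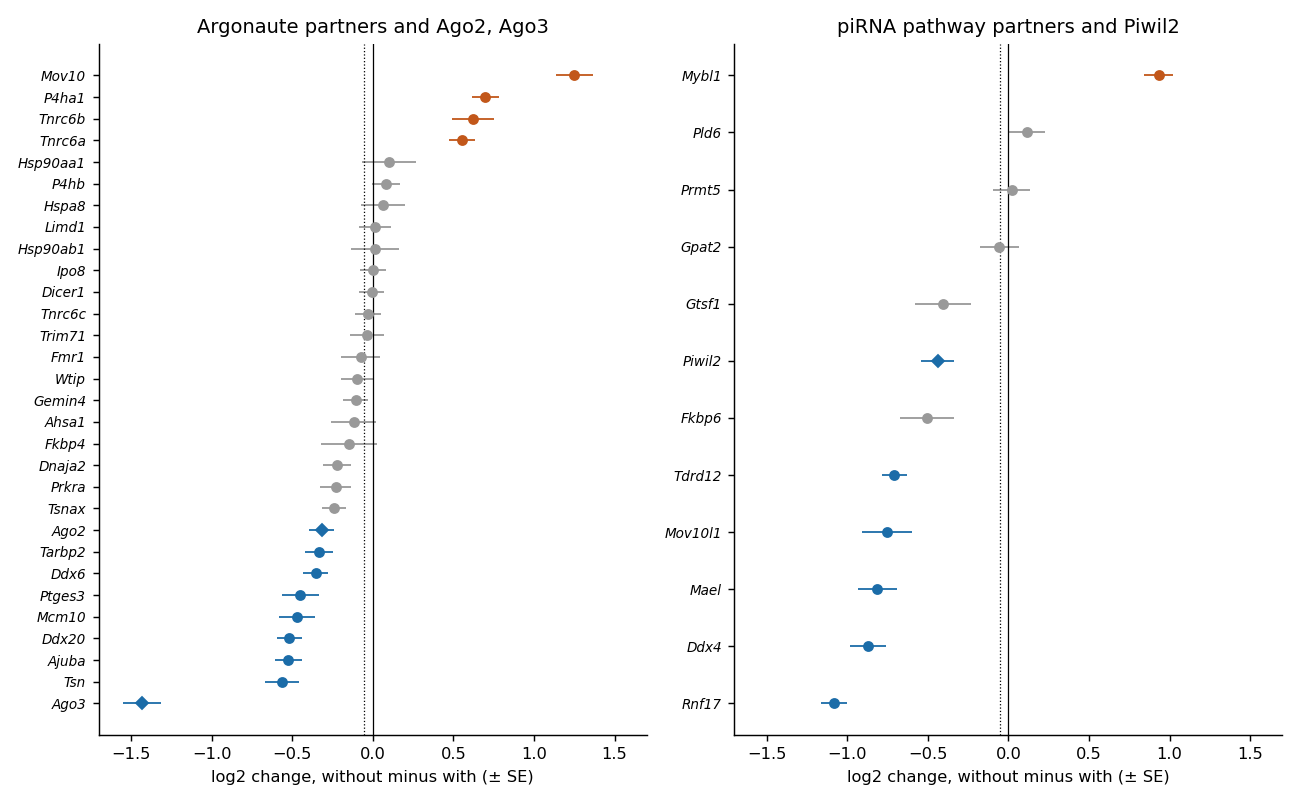
Log2 change without minus with doxycycline (points, with bars of ± SE from limma) for the tested Argonaute partners at left and piRNA pathway partners at right, with the tested members as diamonds. Orange is called higher, blue called lower and grey not called, and the dotted line is the median of all tested genes. Ago3 at -1.43 lies below every Argonaute partner, and Mov10 at 1.25 above.

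Genes with an isoform within 200 kb of a member number 61, of which 36 were tested, and 6 were higher and 8 lower in limma, near the 19.4% and 20.9% of all tested genes. Their median was -0.01 beside -0.06 for all genes. Rimbp2 and Hr, named below, passed the minimum only through the condition without the drug (means with it 0.435 and 0.731 FPKM). These counts and the order of changes therefore describe the tested genes and not all neighbours. Around Ago3, Stk40 (-0.37, adjusted p = 0.0289) and Thrap3 (-0.42, adjusted p = 0.0360) were lower, as was Adprhl2 (-0.45, adjusted p = 0.0173), which is within reach of Ago1, Ago3 and Ago4. Map7d1, near Ago1 and Ago3, was higher (0.66, adjusted p = 0.0214). Beside Ago2, the predicted gene Gm3150 (-0.58, adjusted p = 0.0238) and the kinase gene Ptk2 (-0.37, adjusted p = 0.0359) fell, and Chrac1 (-0.40, adjusted p = 0.102) and Trappc9 (-0.09, adjusted p = 0.471) did not pass. The neighbours of Piwil1 had the widest changes of these: Rimbp2 rose from 0.386 and 0.483 FPKM to 2.18 and 2.27 (1.54, adjusted p = 0.00269) and the Wnt receptor gene Fzd10 from 3.88 and 3.80 to 10.3 and 10.95 (1.36, adjusted p = 0.00196). Next to Piwil4, Mre11a (-0.58, adjusted p = 0.00583) and Ankrd49 (-0.53, adjusted p = 0.00991) fell while Amotl1 rose (0.46, adjusted p = 0.0215). Of the 11 tested around Piwil2, Hr (0.52, adjusted p = 0.0375) and Reep4 (0.36, adjusted p = 0.0282) rose and none fell.

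The genes nearest in pattern were sought among named genes of at least 5 FPKM, by the Euclidean distance between log2(FPKM + 0.5) values centred over the 4 libraries. For Ago2 they were Otud6b (distance 0.00619), Psma5, Dgkh, Rps3a1 and Cmtm4. For Piwil2 they were Kif15 (0.00278), Tada2a, Smarcd3, Snrpd1 and Top1. For Ago3 the nearest were farther away, with Zfp580 first (0.0913), followed by Icosl, Etv4, Odc1 and Ddah1. Odc1 fell from 299 and 303 FPKM to 110 and 119, and Etv4 from 81.9 and 84.7 to 29.0 and 33.4. With 4 libraries in 2 conditions such likeness is a description of these libraries alone.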

How the data were processed

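PolyA RNA of 4 strand-specific libraries was analysed, 2 with and 2 without doxycycline. The authors deposited FPKM per isoform, made with TopHat2 2.0.9 and Cufflinks 2.1.1 on NCBIM37, per the submitters' processing notes, on a Cuffmerge assembly whose deposited annotation gave exon coordinates. The library total behind the FPKM is not given in the sources used here. Isoforms of 200 nt or more in Cufflinks class = or j were summed per gene symbol, leaving out 31251 isoforms with no gene name and 8207 named ones by length or class. Dates stood in place of 25 gene symbols (236 isoforms) and were restored from a second deposited table.

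Genes averaging 1 FPKM or more in 1 of the conditions were tested on log2(FPKM + 0.5) with limma 3.58.1 (trend, two-sided, Benjamini-Hochberg over all genes or isoforms tested, threshold 0.05) in R 4.3.3, with 2 residual and 3.1 prior degrees of freedom for genes. Exon levels were sums of the FPKM of the forms that hold a reference exon. Sequences, frames and coding identity came from GENCODE M21 (GRCm38) transcripts with Biopython 1.88. Alternatives varied the pseudocount, minimum, scaling, isoform classes, length, libraries and replicate block. The text names all members with their forms (of those under 1 FPKM, the ones that carry most of their gene), partner genes that passed the test, neighbours within 200 kb, markers and, for each member of at least 5 FPKM, the 5 genes nearest in pattern. Partner genes that did not pass, and neighbours, are named as examples. The members, lists and rules were chosen with earlier results of these data known.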

Additional observations from a re-analysis of the deposited data

How the results depend on the processing

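The fall of Ago3 kept its direction and its call under all 16 alternatives. None of them left out the 625-nt form, and the most abundant isoform alone, ranked by FPKM, was that form (log2 change -1.87). The alternatives therefore do not show that the fall holds over other forms. The forms from exon 1 to exon 19 changed by -0.92 and the 15595-nt form by -0.02. That of Ago2 lost its call on the TPM scale (log2 change -0.16, limma adjusted p = 0.149), with class = isoforms only (-0.82, 0.0517), with the most abundant isoform alone (-0.18, 0.413) and with each library left out (-0.35 to -0.29). Piwil2 lost its call with no minimum (-0.44, 0.0659), on the TPM scale (-0.31, 0.0638), with class = isoforms only or the most abundant isoform alone (-0.47 in both, adjusted p = 0.160 and 0.178) and with 3 of the 4 libraries left out in turn (range over the 4, -0.52 to -0.36). On the TPM scale the median change moved from -0.06 to 0.10 and the higher share of called genes from 48.2% to 67.7%.

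The 5351 called genes became 2565 with class = isoforms only, 2023 with the most abundant isoform alone and 3065 to 4197 with a library left out. With the replicate block by column number they became 8123. The deviations of the libraries numbered 0 correlated at 0.46 between conditions, but the labels tie these numbers to nothing and there are only 2 pairs, so the block is given as a count alone; it ended the call of no member gene. The count of called isoforms, 0, became 1 with a minimum of 5 FPKM or of 500 nt and 22 with every class and length. Of the 28 Argonaute partners 11 were called, against 7 with no minimum or with class = isoforms only, 3 with the most abundant isoform alone and 4 to 8 with a library left out. The 6 called piRNA partners became 3 with class = isoforms only and 6 to 7 with a library left out. The 14 called neighbours became 6 with no minimum, 3 with class = isoforms only or the most abundant isoform alone and 4 to 9 with a library left out. The cause of these moves was not tested.

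Among single isoforms, the uncalled 15595-nt form of Ago3 changed sign on the TPM scale (0.12), without the library numbered 0 with doxycycline (0.038, against -0.084 at the other end of the libraries left out) and with the median change of all genes set to 0 (0.036), an alternative chosen after seeing the data. The uncalled 5124-nt form of Piwil2 did so without the library numbered 0 with doxycycline (0.12) and without that numbered 1 lacking the drug (0.094), within a range of -0.44 to 0.12 over the libraries left out. Depth is unknown, so no limit of detection can be given for forms listed at 0.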
